A study of Mus musculus with 48 samples.

Results

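The collagen, laminin and fibrillar matrix genes are the 47 genes whose symbols name a collagen chain, a laminin chain, a fibrillin, a fibulin, a nidogen, fibronectin or tenascin-C. They were chosen by symbol alone and are measured by 69 of the 12488 probe sets of the Affymetrix MG-U74Av2 array, and by 47 of the 8252 genes that a probe set names singly. They divide into 31 collagens (44 probe sets), 9 laminin chains (14 probe sets) and 7 others (11 probe sets), the last being Fbln1, Fbln2, Fbn2, Fn1, Nid1, Nid2 and Tnc. RNA came from forelimb buds of mouse embryos whose mothers had been injected intraperitoneally on gestation day 9.5. The agents were cadmium sulfate at 4 mg/kg in phosphate-buffered saline (PBS), set against PBS alone, and acetazolamide at 400 mg/kg in vegetable oil, set against oil alone. Acetazolamide inhibits carbonic anhydrase, and both agents are known to cause forelimb defects in mice. Right limb buds were collected 3 h or 12 h after injection, and trypsin at 2% separated ectoderm from mesoderm. The 8 comparisons, of each agent with its own vehicle in each tissue and at each time, had 3 arrays on either side. Material of several litters was pooled for each RNA, according to the labels, which elsewhere call the extracts non-pooled. The labels used here give no strain, and they do not say that the 3 arrays of a group came from separate pools, so the p-values measure the spread between arrays.

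Collagens are triple-helical proteins. The fibril-forming types I, II, III, V and XI make the fibres of mesenchyme and cartilage, and type IV makes the network of basement membranes. Laminins are heterotrimers of an alpha, a beta and a gamma chain that build the basement membrane together with type IV collagen, and nidogens link the networks of both. In a limb bud, a basement membrane lies between the surface ectoderm and the mesoderm, and blood vessels of the mesoderm have their own.

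Each value is a ratio of an array to the vehicle arrays of its comparison, given here as its log2. No expression level was kept, so genes cannot be compared in level, and the tissue labels could not be checked against defining markers. Vehicle arrays 1 and 2 mirror each other around 0 because their mean is their own denominator, and vehicle array 3 is 0 for every gene. The medians of single arrays over all genes lay between -0.11 and 0.10. A difference below is the log2 difference of agent minus vehicle with its SE, from limma across all 8252 genes, and a gene is called at an adjusted p under 0.05. The 95% interval of a gene extended to either side by a median of 0.21 in the 12 h cadmium mesoderm comparison, the narrowest, and 0.42 in 12 h cadmium ectoderm, the widest. In bulk RNA, fewer cells of a type and less RNA per cell cannot be told apart.

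Matrix genes differed little between agent and vehicle arrays in most comparisons. Across 47 genes and 8 comparisons, 1 gene in 1 comparison was called, Col18a1 in mesoderm at 12 h after cadmium. Of the 376 gene and comparison pairs, 19 were higher and 5 lower at an unadjusted p under 0.05 (5.05% and 1.33%), against 3.19% and 2.76% of all genes. In 29 of the 47 genes no comparison reached that level, and in 18 genes all 8 differences lay within 0.2 of 0. Col4a1, a main chain of type IV collagen, was above 0 in 8 of 8 comparisons, from 0.05 in acetazolamide mesoderm at 3 h to 0.65 in acetazolamide ectoderm at 12 h, and no other member was. Tnc, which encodes the glycoprotein tenascin-C of embryonic mesenchyme, ran only from -0.11 to 0.17, and Col12a1, a collagen found on the surface of fibrils, from -0.06 to 0.06.

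**Figure D1:**
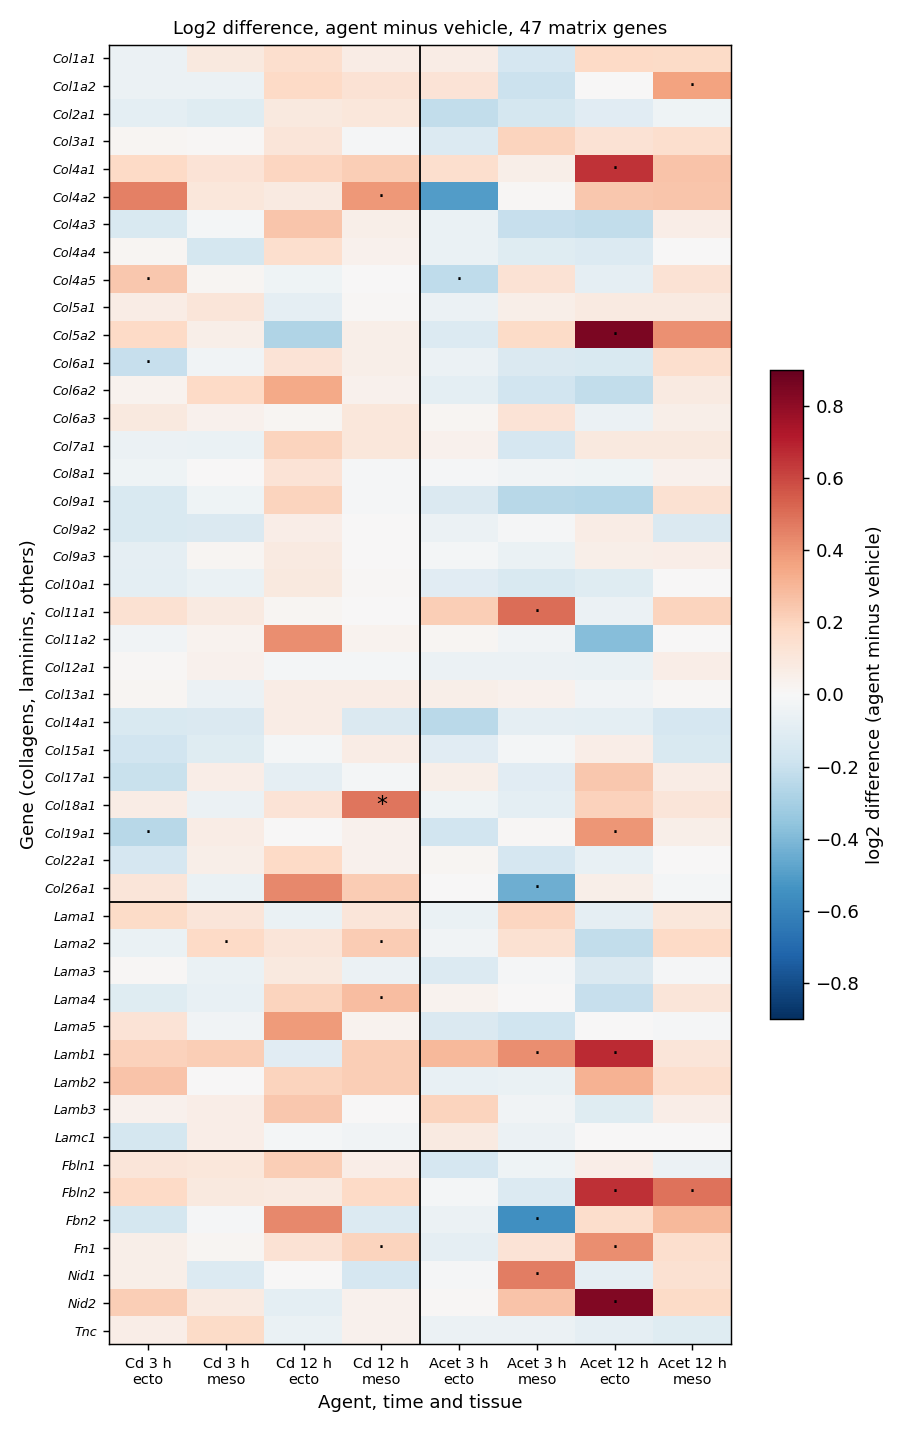
Each cell is the log2 difference, agent minus vehicle, of 1 of 47 matrix genes (rows, in the order collagens, laminins, others) in 1 of 8 comparisons (columns, cadmium left and acetazolamide right, ecto for ectoderm and meso for mesoderm). The star marks Col18a1 in mesoderm at 12 h after cadmium, the 1 call, and dots mark an unadjusted p under 0.05; the darkest cells stand in acetazolamide ectoderm at 12 h, where 0 genes were called.

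At 12 h after cadmium, mesoderm had more RNA of Col18a1, which encodes the chain of type XVIII collagen, a heparan sulfate proteoglycan of epithelial and vascular basement membranes whose end fragment is endostatin. Its log2 ratio was 0.39, 0.49 and 0.51 in the 3 cadmium arrays, against -0.25, 0.21 and 0 in the 3 PBS arrays. All 3 cadmium arrays lay above all 3 PBS arrays. Col18a1 rose by 0.48 ± 0.12 (SE; 95% interval 0.24 to 0.72), a 1.39-fold change (limma, adjusted p = 0.0225). In this comparison 2.28% of all genes were called (188 of 8252), so the 1 of 47 members called is a share near the background. The groups did not overlap for 4 members that were higher (9.80% of all genes) and for 1 that was lower (9.51%).

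The call for Col18a1 rests on the spread that is allowed for each comparison and on single arrays. Without PBS array 1 the difference was 0.35 (adjusted p = 0.124), and without cadmium array 2 it was 0.46 (adjusted p = 0.0912). Without PBS array 3 or without cadmium array 3 it was 0.46 (adjusted p = 0.142). That is the same fit, since these arrays share a denominator mean of their own and leaving out either removes both from the difference. Without precision weights, which let each comparison have its own spread, the adjusted p was 0.655 at the same difference of 0.48.

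Col18a1 is measured by 5 probe sets, more than any other member, and they did not give 1 value. In mesoderm at 12 h after cadmium, probe set 99638_at differed by 0.69 ± 0.13 (adjusted p = 0.00391 among single probe sets) and 101881_g_at by 0.79 ± 0.20 (adjusted p = 0.0404). Probe sets 101882_s_at and 162483_f_at differed by 0.49 ± 0.17 and 0.42 ± 0.19. Probe set 101880_at differed by 0.00 ± 0.08. So 4 of 5 lay well above 0 and 1 did not. Values above 0 in some of these probe sets were not confined to this comparison. In acetazolamide ectoderm at 12 h, 101881_g_at differed by 0.47 ± 0.34 and 162483_f_at by 0.47 ± 0.31, neither at an unadjusted p under 0.05. Probe set 99638_at differed there by 0.07 ± 0.22, and the remaining probe sets ran from -0.20 to 0.26. The files do not say which exons or transcripts each probe set reads.

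**Figure D2:**
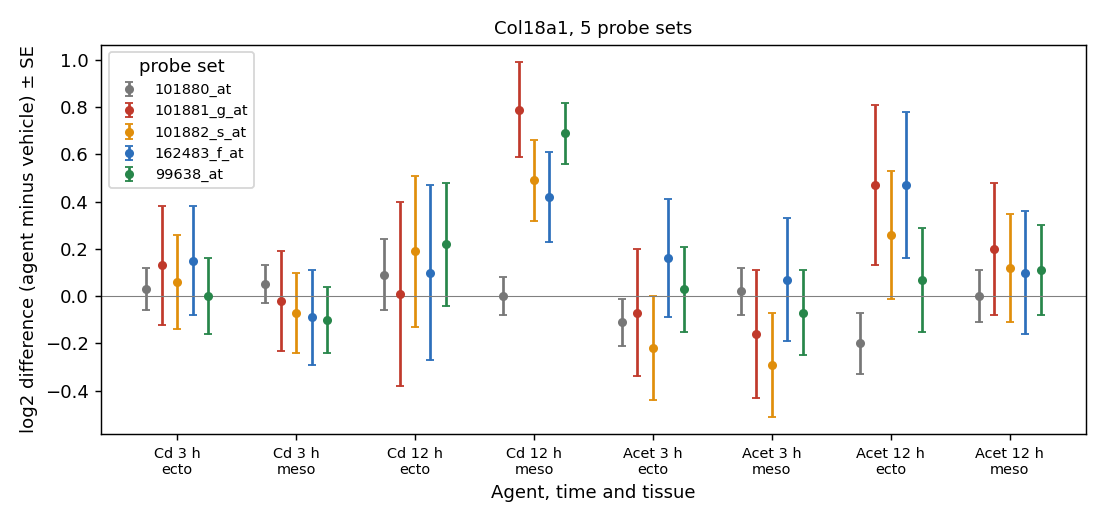
Points are the log2 difference, agent minus vehicle, of each of the 5 Col18a1 probe sets in the 8 comparisons, and bars are the SE of the fit. In mesoderm at 12 h after cadmium 4 probe sets lie between 0.42 and 0.79 while 101880_at lies at 0.00.

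Col18a1 lies on mouse chromosome 10 (77052178 to 77166530, GRCm38.p6, minus strand), and the RefSeq table gives it start sites whose windows are 52525 bases apart, since the gene has alternative promoters. Both windows are shown because a probe set average cannot say which transcript is measured. Each runs from 250 bases before to 50 bases after a start, 5′ to 3′ on the minus strand, with capitals at GGGCGG on either strand (read as CCGCCC on the other), the core of an Sp1-type GC box.
Upstream start, chr10:77166481-77166780: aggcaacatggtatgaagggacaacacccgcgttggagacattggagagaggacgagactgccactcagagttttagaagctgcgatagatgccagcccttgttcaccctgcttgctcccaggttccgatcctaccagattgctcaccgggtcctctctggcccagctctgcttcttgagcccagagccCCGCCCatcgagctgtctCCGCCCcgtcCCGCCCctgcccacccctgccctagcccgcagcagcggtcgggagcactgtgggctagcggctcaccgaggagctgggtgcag
Downstream start, chr10:77113656-77113955: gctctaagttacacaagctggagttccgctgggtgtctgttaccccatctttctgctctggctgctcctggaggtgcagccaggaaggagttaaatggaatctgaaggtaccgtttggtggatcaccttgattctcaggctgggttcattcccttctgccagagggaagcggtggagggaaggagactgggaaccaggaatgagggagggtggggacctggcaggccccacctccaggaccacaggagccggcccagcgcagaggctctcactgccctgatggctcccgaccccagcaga
The upstream window holds 3 matches and 16 CG dinucleotides, and the downstream window holds 0 matches and 6. Among 32851 promoter windows of 300 bases, 35.7% hold at least 1 match and the median has 7 CG dinucleotides. The motif TATAAA, on either strand, is in neither window and in 13.6% of all windows. These are descriptions of the letters only.

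In the same mesoderm comparison 5 of 47 members were higher at an unadjusted p under 0.05 and 0 were lower, against 6.73% of all genes higher and 7.11% lower. Besides Col18a1 these were Lama2, Fn1, Lama4 and Col4a2, and none of the 4 was called. Lama2, the alpha chain of muscle laminins, had 0.13, 0.41 and 0.15 in cadmium arrays, against -0.09, 0.08 and 0 in PBS arrays. Its groups did not overlap, and the difference was 0.23 ± 0.08 (adjusted p = 0.124). Without cadmium array 1 Lama2 was called, at 0.30. Fn1, which encodes the adhesive protein fibronectin, had 0.13, 0.24 and 0.24 in cadmium arrays, against -0.03, 0.03 and 0 in PBS arrays, a difference of 0.20 ± 0.08 (adjusted p = 0.210). Lama4, the alpha chain typical of laminins of vascular endothelium, had 0.22, 0.10 and 0.52 in cadmium arrays, against 0.04, -0.04 and 0 in PBS arrays. The cadmium arrays of Lama4 all lay above the PBS arrays, but its 2 probe sets disagreed, with 0.49 ± 0.16 and 0.06 ± 0.11 for an average of 0.28 ± 0.11 (adjusted p = 0.224). Col4a2, the partner of Col4a1 in the common type IV trimer, had 0.33, 0.68 and 0.15 in cadmium arrays, against -0.20, 0.18 and 0 in PBS arrays. Its groups overlapped, and the difference was 0.39 ± 0.19 (adjusted p = 0.352). Nid1, which encodes nidogen-1, was the 1 member with all cadmium arrays below all PBS arrays, at -0.16, -0.24 and -0.05 against 0.03, -0.03 and 0. Its difference was -0.15 ± 0.09 (adjusted p = 0.520).

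The fibril-forming collagens did not show such differences there. The 8 measured genes (Col1a1, Col1a2, Col2a1, Col3a1, Col5a1, Col5a2, Col11a1 and Col11a2) lay between -0.01 and 0.13, with 0 of 8 at an unadjusted p under 0.05. Col1a1, a chain of type I collagen, differed by 0.07 (95% interval -0.14 to 0.28). Col3a1, the chain of type III collagen, differed by -0.01 (95% interval -0.26 to 0.23). Intervals of this width leave room for changes about the size of that of Lama2.

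Endothelial markers were higher in the same arrays. Of 24 measured markers, 22 lay above 0 and 5 were called, with a median difference of 0.21 against 0.01 over all genes. The called ones were Gja4 (connexin 37, 0.85 ± 0.12), Tie1 (an endothelial receptor kinase, 0.63 ± 0.12), Eng (endoglin, 0.58 ± 0.16), Vwf (von Willebrand factor, 0.47 ± 0.10) and Sox7 (a transcription factor, 0.43 ± 0.10). The mean log2 ratio of the list was 0.12, 0.18 and 0.46 in cadmium arrays, against -0.09, 0.06 and 0 in PBS arrays. Of 20 red blood cell markers, 2 were called, Alas2 (haem synthesis, 0.53 ± 0.12) and Nfe2 (0.40 ± 0.11). Of 30 surface ectoderm markers 20 lay above 0 (median 0.06), and of 22 limb mesoderm markers 9 (median -0.07). In these lists 0 were called, with 2 and 1 at an unadjusted p under 0.05. The groups did not overlap for 6 surface ectoderm markers that were higher (9.80% of all genes) and 1 that was lower (9.51%). The log2 ratio of 3′ over 5′ signal, from control probe sets, was -0.71 to 0.11 for Gapdh in cadmium arrays, against -0.31 to 0.37 in PBS arrays, and -0.23 to 0.02 for beta-actin against -0.20 to 0.13. The part of these cell types and of RNA quality in the values of Col18a1, Lama4 and Col4a2 was not tested. Since ratios keep no level, markers at 0 cannot be named.

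**Figure D3:**
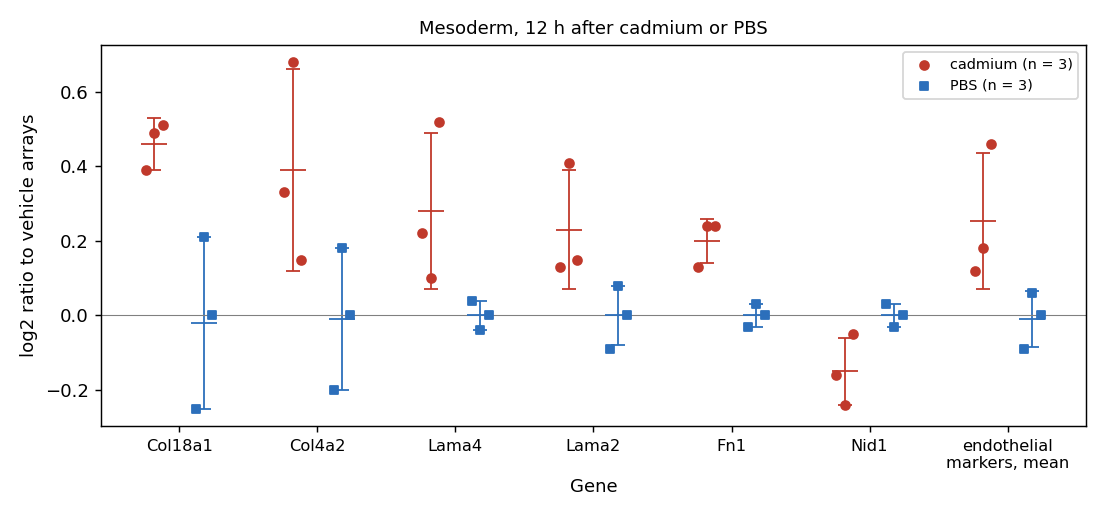
Log2 ratios to vehicle arrays in mesoderm at 12 h for 6 matrix genes and the mean of 24 endothelial markers, with circles for the 3 cadmium arrays, squares for the 3 PBS arrays, long bars for means and error bars for the SD. For Col18a1 the cadmium arrays lie between 0.39 and 0.51 and the PBS arrays between -0.25 and 0.21, and for Nid1 the cadmium arrays lie lowest.

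In ectoderm at 12 h after cadmium, 0 of 47 members were called (limma; 0.0242% of all genes), and 0 were higher or lower at an unadjusted p under 0.05 (1.08% and 3.37% of all genes). The members lay above 0 in 35 of 47 cases (74.5%, against 57.6% of all genes), with a median of 0.09 against 0.03. The groups did not overlap for 3 members that were higher (4.33% of all genes) and 0 that were lower (5.72%). The 3 were Col10a1, Col26a1 and Fbn2. Fbn2, which encodes the microfibril protein fibrillin-2, had 0.22, 0.17 and 0.91 in cadmium arrays, against 0.00, 0.00 and 0 in PBS arrays, a difference of 0.43 ± 0.35. Col26a1 had 0.45, 0.15 and 0.69 in cadmium arrays, against 0.06, -0.06 and 0 in PBS arrays, a difference of 0.43 ± 0.23. Col11a2, a chain of the thin type XI fibrils of cartilage, had 0.18, 0.71 and 0.17 in cadmium arrays, against 0.43, -0.62 and 0 in PBS arrays, and the groups overlapped at a difference of 0.42 ± 0.24. That value rests on single arrays, since it was 0.08 without PBS array 2 and 0.68 without PBS array 1.

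The cadmium arrays of 12 h ectoderm went different ways for several basement membrane genes. Lama5, the alpha chain of most epithelial laminins, had 0.42, -0.62 and 1.34 in cadmium arrays, against 0.01, -0.01 and 0 in PBS arrays. Lamb2, a beta chain, had 0.70, -0.93 and 0.72 in cadmium arrays, against -0.48, 0.36 and 0. Fbln1, which encodes fibulin-1, had 0.74, -0.60 and 0.51 in cadmium arrays, against 0.03, -0.04 and 0. In each of these genes cadmium array 2 was the lowest of the 6 arrays and the other 2 cadmium arrays were the highest, as also for Col18a1 (0.27, -0.63 and 0.70) and Col4a2 (0.23, -0.86 and 0.86). Lama4, by contrast, had 0.26, 0.29 and 0.03 in cadmium arrays, against 0.14, -0.16 and 0, with overlapping groups at a difference of 0.20 ± 0.22. Of 24 endothelial markers 24 lay above 0 in this comparison and 1 was called, Mcam (1.10 ± 0.16), an adhesion molecule gene. The log2 ratio of 3′ over 5′ signal for the control gene Gapdh was -0.67 to 1.80 in cadmium arrays, against -0.33 to 0.42 in PBS arrays, and for beta-actin 0.02 to 0.08 against -0.23 to 0.40. The part of other cells or of RNA quality in these values was not tested.

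At 3 h after cadmium, 0 of 47 members were called in either tissue (limma; 0% of all genes in each). In ectoderm, 1 member was higher and 2 were lower at an unadjusted p under 0.05 (2.13% and 1.19% of all genes). Groups did not overlap for 4 higher and 5 lower members there (5.57% and 3.82% of all genes). Col4a5, a type IV chain of specialised basement membranes, had 0.24, 0.30 and 0.18 in cadmium arrays, against -0.16, 0.14 and 0 in PBS arrays, a difference of 0.24 ± 0.10 (adjusted p = 0.999). Col6a1, a chain of the beaded filaments of type VI collagen, had -0.27, -0.15 and -0.22 in cadmium arrays, against 0.07, -0.07 and 0 in PBS arrays, a difference of -0.21 ± 0.09. Both genes had fully separate arrays. Col19a1, a collagen of basement membrane zones, had -0.05, -0.36 and -0.34 in cadmium arrays, against 0.08, -0.08 and 0, a difference of -0.25 ± 0.11 with overlapping groups. Of the laminins there, Lama1, the early embryonic alpha chain, had 0.21, 0.15 and 0.16 in cadmium arrays, against -0.12, 0.11 and 0 in PBS arrays, and Lamc1, the common gamma chain, -0.12, -0.23 and -0.12 against 0.02, -0.02 and 0. Their arrays were separate in opposite directions, at differences of 0.17 ± 0.12 and -0.16 ± 0.10. Nid2, which encodes nidogen-2, had 0.21, 0.23 and 0.20 in cadmium arrays, against 0.12, -0.13 and 0 in PBS arrays. Fbln2, which encodes fibulin-2, had 0.31, -0.25 and 0.48 in cadmium arrays, against -0.10, 0.09 and 0 in PBS arrays. Nid2 had separate arrays at 0.22 ± 0.21 and Fbln2 overlapping ones at 0.18 ± 0.20.

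In mesoderm at 3 h after cadmium, 1 member was higher at an unadjusted p under 0.05 and 0 were lower (1.38% and 1.71% of all genes), and 2 members had separate arrays on the higher side and 0 on the lower (5.45% and 4.18% of all genes). These were Col5a1 and Lama2. Lama2 had 0.26, 0.17 and 0.10 in cadmium arrays, against -0.06, 0.06 and 0 in PBS arrays, a difference of 0.18 ± 0.08. Lama2 was thus above PBS on all cadmium mesoderm arrays at both times. Lamb1, the beta chain of the common embryonic laminins, had 0.12, 0.24 and 0.22 in cadmium arrays, against -0.40, 0.31 and 0 in PBS arrays, a difference of 0.22 ± 0.14. Col6a2, a type VI chain, had 0.31, 0.22 and 0.00 in cadmium arrays, against 0.10, -0.11 and 0, a difference of 0.18 ± 0.14. Both had overlapping groups. Col4a4, a type IV chain of specialised basement membranes, had -0.24, -0.28 and 0.00 in cadmium arrays, against 0.18, -0.21 and 0, a difference of -0.16 ± 0.10. Tnc had -0.02, 0.07 and 0.44 in cadmium arrays, against -0.19, 0.16 and 0, a difference of 0.17 ± 0.11. Nid1 had -0.29, -0.26 and 0.18 in cadmium arrays, against -0.01, 0.01 and 0, a difference of -0.12 ± 0.10. In these 3 genes too the groups overlapped, and cadmium array 3 was the highest of the cadmium arrays. Of 30 surface ectoderm markers 23 lay above 0 (median 0.09), with 4 higher and 0 lower at an unadjusted p under 0.05. Their array means were 0.08 to 0.20 in cadmium arrays, against -0.01 to 0 in PBS arrays. Of 22 limb mesoderm markers 8 lay above 0 (median -0.08), and 0 genes of either list were called. The part of other cells in the matrix values was not tested.

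Acetazolamide gave the widest differences in ectoderm at 12 h, but with 0 of 47 members called (limma; 0% of all genes). There 7 members were higher at an unadjusted p under 0.05 and 0 were lower, against 5.67% and 2.19% of all genes. They were Fn1, Lamb1, Nid2, Col4a1, Col5a2, Col19a1 and Fbln2, with adjusted p from 0.478 to 0.622. The groups did not overlap for 4 members that were higher (8.48% of all genes) and 2 that were lower (8.31%).

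Lamb1 had 0.50, 0.73 and 0.77 in acetazolamide arrays, against -0.20, 0.18 and 0 in oil arrays. Fn1 had 0.39, 0.65 and 0.22 in acetazolamide arrays, against -0.13, 0.12 and 0 in oil arrays. Col4a1 had 0.46, 0.94 and 0.47 in acetazolamide arrays, against -0.39, 0.31 and 0 in oil arrays. In these 3 genes every acetazolamide array lay above every oil array, with differences of 0.67 ± 0.23, 0.42 ± 0.13 and 0.65 ± 0.23. Nid2 had 0.96, 1.27 and 0.22 in acetazolamide arrays, against -0.29, 0.24 and 0 in oil arrays, a difference of 0.83 ± 0.29. Fbln2 had 0.81, 1.03 and 0.03 in acetazolamide arrays, against -0.49, 0.36 and 0 in oil arrays, a difference of 0.66 ± 0.27. For Nid2 and Fbln2, acetazolamide array 3 lay below the higher oil array, so the groups overlapped. Col5a2, a chain of type V collagen, which sets the width of type I fibrils, had 0.72, 0.93 and 0.48 in acetazolamide arrays, against -1.03, 0.59 and 0 in oil arrays. Its oil arrays 1 and 2 differed by 1.62, the widest such gap of any member there, and its difference was 0.85 ± 0.30. It was 0.34 without oil array 1 and 1.26 without oil array 2. Col19a1 had 0.57, 0.42 and 0.15 in acetazolamide arrays, against -0.28, 0.24 and 0, a difference of 0.40 ± 0.15. Lama2 went the other way, with -0.30, 0.02 and -0.37 in acetazolamide arrays, against 0.02, -0.02 and 0, and overlapping groups at -0.22 ± 0.13.

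**Figure D4:**
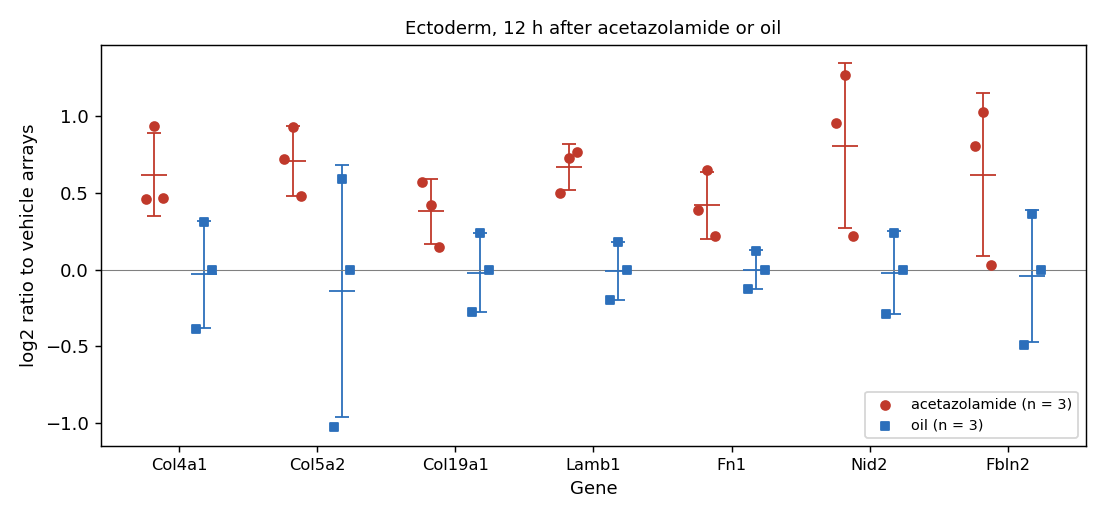
Log2 ratios to vehicle arrays in ectoderm at 12 h for the 7 members with an unadjusted p under 0.05, with circles for the 3 acetazolamide arrays, squares for the 3 oil arrays, long bars for means and error bars for the SD. In all 7 genes oil array 1 lies below 0 and oil array 2 above it, and for Col5a2 they lie at -1.03 and 0.59.

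The oil arrays of this comparison were themselves far apart. Arrays 1 and 2 differed by more than 0.5 in 15 of 47 members and in 22.6% of all genes, and in each of the 7 genes above array 1 was the lower. Without oil array 2, 6 members were called, of which Col4a1, Col5a2, Col19a1, Fn1 and Lamb1 were higher and Col11a2 was lower. The share of all genes called in that fit is not given here, so the 6 were not set against a background. With all arrays, Col11a2 had -0.57, -0.50 and -0.28 in acetazolamide arrays, against 0.45, -0.66 and 0 in oil arrays, a difference of -0.38 ± 0.21. Control probe sets differed too. The log2 ratio of 3′ over 5′ signal for Gapdh was 0.29 to 0.60 in acetazolamide arrays, against -0.27 to 0.26 in oil arrays, and for beta-actin 0.17 to 0.33 against -0.05 to 0.10. The mean difference was above 0 for both control genes in all 4 acetazolamide comparisons, from 0.41 to 0.59 for Gapdh and from 0.23 to 0.52 for beta-actin. Of 24 endothelial markers 6 lay above 0 here (median -0.13), with 0 higher and 3 lower at an unadjusted p under 0.05. Their array means were -0.24 to -0.07 in acetazolamide arrays, against -0.05 to 0.01 in oil arrays. Of 22 limb mesoderm markers 11 lay above 0 (median -0.01), and 0 genes of either list were called. The part of RNA quality or of other cells in the matrix values was not tested.

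In mesoderm at 12 h after acetazolamide, 0 of 47 members were called (limma; 0% of all genes), and 2 were higher and 0 lower at an unadjusted p under 0.05 (0.557% and 0.230% of all genes). Groups did not overlap for 5 higher members and 1 lower member (3.43% and 2.48% of all genes). Fbln2 had 0.54, 0.65 and 0.29 in acetazolamide arrays, against 0.08, -0.08 and 0 in oil arrays, a difference of 0.49 ± 0.23. Col1a2, a chain of type I collagen, had 0.19, 0.78 and 0.09 in acetazolamide arrays, against 0.05, -0.05 and 0, a difference of 0.36 ± 0.17. Both had separate arrays, but array 2 of Col1a2 stood far above the other acetazolamide arrays. The 2 probe sets of Col1a2 disagreed there, with 0.69 ± 0.30 for 101130_at and 0.02 ± 0.25 for 161156_r_at. Col5a2 had 0.59, 0.45 and 0.15 in acetazolamide arrays, against -0.22, 0.19 and 0, with overlapping groups at 0.41 ± 0.26. Lama2 had 0.06, 0.30 and 0.17 in acetazolamide arrays, against -0.02, 0.02 and 0, with separate arrays at 0.18 ± 0.11. Lama2 thus had opposite signs in ectoderm and mesoderm, but the difference between tissues was not called (-0.40 ± 0.17, adjusted p = 0.967). Lama1 had -0.11, 0.26 and 0.15 in acetazolamide arrays, against 0.08, -0.09 and 0, a difference of 0.10 ± 0.13. Fn1 had 0.11, 0.40 and -0.07 in acetazolamide arrays, against 0.00, 0.00 and 0, a difference of 0.15 ± 0.11. For Lama1 and Fn1 the groups overlapped. Members above 0 made 35 of 47 (74.5%, against 53.3% of all genes).

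At 3 h after acetazolamide, 0 of 47 members were called in ectoderm (limma; 0.0242% of all genes) or in mesoderm (0.0364%). In mesoderm 3 members were higher and 2 lower at an unadjusted p under 0.05 (4.59% and 2.76% of all genes), and arrays were separate for 2 higher and 2 lower members (9.33% and 6.59%). Nid1 had 0.01, 0.45 and 0.92 in acetazolamide arrays, against 0.02, -0.02 and 0 in oil arrays. Its acetazolamide arrays ran from the level of the oil arrays to well above them, at a difference of 0.46 ± 0.13 (adjusted p = 0.366). Col11a1, a type XI chain, had 0.15, 0.92 and 0.42 in acetazolamide arrays, against -0.08, 0.07 and 0, a difference of 0.50 ± 0.18. Lamb1 had 0.43, 0.75 and 0.09 in acetazolamide arrays, against -0.10, 0.10 and 0, a difference of 0.42 ± 0.19. Fbn2 had -0.65, -0.43 and -0.71 in acetazolamide arrays, against -0.52, 0.38 and 0 in oil arrays, a difference of -0.55 ± 0.24. Col26a1 had -0.28, -0.52 and -0.51 in acetazolamide arrays, against 0.04, -0.05 and 0, a difference of -0.44 ± 0.16 with separate arrays. Lama1 had 0.26, 0.15 and 0.16 in acetazolamide arrays, against -0.06, 0.05 and 0, with separate arrays at 0.19 ± 0.13. Without oil array 1, Nid1 (0.54) and Fbn2 (-0.83) were called, and the share of all genes called in that fit is not given here. Of 22 limb mesoderm markers 4 lay above 0, with array means of -0.26 to -0.22 in acetazolamide arrays, against -0.10 to 0.04 in oil arrays. Of 24 endothelial markers 4 lay above 0, with array means of -0.20 to -0.15 against -0.12 to 0.07, and 0 genes of either list were called. The 3′ over 5′ log2 ratio was 0.50 to 0.80 for Gapdh in acetazolamide arrays, against -0.37 to 0.52 in oil arrays, and -0.03 to 1.55 for beta-actin against -0.24 to 1.30. The part of other cells or of RNA quality in the matrix values was not tested.

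In ectoderm at 3 h after acetazolamide, 0 members were higher and 1 was lower at an unadjusted p under 0.05 (3.34% and 3.51% of all genes), and 4 collagens had separate arrays on the lower side and 0 members on the higher (9.09% and 4.76% of all genes). Col4a5 had -0.07, -0.07 and -0.56 in acetazolamide arrays, against -0.03, 0.03 and 0 in oil arrays, a difference of -0.23 ± 0.11 (adjusted p = 0.717). Acetazolamide array 3 made most of that difference. Col4a2 had 0.16, -0.38 and -1.29 in acetazolamide arrays, against 0.07, -0.07 and 0, a difference of -0.50 ± 0.26 with overlapping groups. It was -0.11 without acetazolamide array 3 and -0.77 without acetazolamide array 1. Lamb1 had 0.16, 0.40 and 0.27 in acetazolamide arrays, against -0.27, 0.23 and 0, a difference of 0.29 ± 0.18. Lamb3, a beta chain of epithelial laminin, had 0.82, 0.11 and -0.35 in acetazolamide arrays, against 0.12, -0.14 and 0, a difference of 0.20 ± 0.19. Both had overlapping groups, and for Lamb3 the acetazolamide arrays held the highest and the lowest value. Fbln1 had 0.20, -0.21 and -0.44 in acetazolamide arrays, against 0.11, -0.12 and 0, a difference of -0.15 ± 0.18. Fn1 had 0.00, -0.04 and -0.20 in acetazolamide arrays, against -0.02, 0.02 and 0, a difference of -0.08 ± 0.11. Acetazolamide array 3 was the lowest for Fbln1, Fn1 and Lamb3 as well. In that array the mean log2 ratio was -0.26 over collagens, -0.28 over laminins and -0.27 over the others. The value over all genes, -0.11, is a median and not a mean. The mean over 24 endothelial markers was -0.19 in that array, so low values there were not confined to matrix genes. In acetazolamide arrays 1 and 2 these class means lay between -0.02 and 0.29, and in oil arrays between -0.05 and 0.04.

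Lamb1 stood nearest to a call when each agent was averaged over both tissues and times. Its mean acetazolamide difference was 0.37 ± 0.10 (limma, adjusted p = 0.0668), from differences of 0.29 and 0.42 at 3 h and 0.67 and 0.11 at 12 h, in ectoderm and mesoderm. Lamb1 was called without precision weights (adjusted p = 0.0318), without the block for shared denominators (adjusted p = 0.0431) and without both (adjusted p = 0.0198). It was also called without oil array 2 of 3 h ectoderm (adjusted p = 0.0359), oil or acetazolamide array 3 of 3 h mesoderm (adjusted p = 0.0461 for each) or oil array 2 of 12 h ectoderm (adjusted p = 0.0253). The share of all genes called in these fits is not given here. In 25 of 34 alternatives, however, no member was called in that mean. Leaving out oil array 3 or acetazolamide array 3 of a comparison is the same fit, though both are counted. Of the 47 members, 7 were higher and 0 lower at an unadjusted p under 0.05 in that mean, against 9.13% and 4.99% of all genes, and 0 were called against 0.739%. The others were Col4a1 (0.28 ± 0.10), Fn1 (0.15 ± 0.06), Nid2 (0.32 ± 0.12), Col5a2 (0.33 ± 0.13), Col11a1 (0.22 ± 0.09) and Fbln2 (0.26 ± 0.12). In the mean over cadmium comparisons 2 members were higher and 0 lower at that level (4.77% and 5.79% of all genes), Col26a1 (0.18 ± 0.08) and Lama2 (0.12 ± 0.05), and 0 were called (0.570% of all genes).

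No member was called in any of the 12 differences between times, tissues or agents by limma, and 19 of 564 gene and difference pairs had an unadjusted p under 0.05 (3.37%, against 4.08% over all genes). Of all genes, 0.460% were called in the cadmium time difference in mesoderm. The share was 0.0121% in the cadmium time difference in ectoderm and in cadmium minus acetazolamide in 3 h ectoderm and 12 h mesoderm, and 0% in the other 8. For Col18a1, the cadmium effect in mesoderm was 0.48 at 12 h and -0.05 at 3 h, a time difference of 0.53 ± 0.17 (adjusted p = 0.206). The rise of Col18a1 in mesoderm was therefore not shown to differ from its value of 0.12 ± 0.22 in ectoderm at 12 h, nor from that after acetazolamide in mesoderm at 12 h (0.11 ± 0.16). For Nid1 in mesoderm at 3 h, the cadmium effect was -0.12 and the acetazolamide effect 0.46, a difference between agents of -0.59 ± 0.16 (adjusted p = 0.999). For Col4a2 in ectoderm at 3 h, cadmium gave 0.45 and acetazolamide -0.50, a difference of 0.95 ± 0.35 (adjusted p = 0.658). For Col4a5 they gave 0.24 and -0.23, a difference of 0.48 ± 0.15 (adjusted p = 0.642). For Col11a2 in ectoderm at 12 h they gave 0.42 and -0.38, a difference of 0.80 ± 0.32 (adjusted p = 0.347). Without PBS array 1 or without oil array 2 that difference was called (adjusted p = 0.0486 and 0.0435). These 4 genes had opposite signs under the agents, and in none did the difference pass the threshold with all arrays.

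Col4a1 and Col4a2 encode the chains of the most widespread type IV collagen and sit head to head on chromosome 8 (GRCm38.p6), Col4a1 from 11198423 to 11312889 on the minus strand and Col4a2 from 11312805 to 11449287 on the plus strand. Their values side by side, for Col4a1 and then Col4a2, were 0.18 and 0.45 in cadmium ectoderm at 3 h, 0.12 and 0.10 in mesoderm at 3 h, 0.19 and 0.08 in ectoderm at 12 h, and 0.22 and 0.39 in mesoderm at 12 h. After acetazolamide they were 0.15 and -0.50 in ectoderm at 3 h, 0.05 and 0.01 in mesoderm at 3 h, 0.65 and 0.24 in ectoderm at 12 h, and 0.26 and 0.25 in mesoderm at 12 h. The signs were the same in 7 of 8 comparisons. Since Col4a1 was above 0 in all 8, this is only the count of comparisons with Col4a2 above 0. Col11a1, Col6a3, Fn1, Lamb1 and Nid2 were also above 0 in 7 of 8, so the shared signs are not particular to this pair. The windows around both starts are shown because they overlap from 11312777 to 11312854, a stretch of 78 bases read on opposite strands. Each is written 5′ to 3′ on the strand of its gene, with capitals at GGGCGG on either strand.
Col4a1, chr8:11312777-11313076: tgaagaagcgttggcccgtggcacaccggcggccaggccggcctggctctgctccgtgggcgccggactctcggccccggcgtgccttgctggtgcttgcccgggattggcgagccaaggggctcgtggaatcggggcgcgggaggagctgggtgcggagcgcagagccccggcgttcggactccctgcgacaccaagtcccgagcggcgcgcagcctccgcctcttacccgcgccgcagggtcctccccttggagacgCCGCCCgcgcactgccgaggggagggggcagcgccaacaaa
Col4a2, chr8:11312555-11312854: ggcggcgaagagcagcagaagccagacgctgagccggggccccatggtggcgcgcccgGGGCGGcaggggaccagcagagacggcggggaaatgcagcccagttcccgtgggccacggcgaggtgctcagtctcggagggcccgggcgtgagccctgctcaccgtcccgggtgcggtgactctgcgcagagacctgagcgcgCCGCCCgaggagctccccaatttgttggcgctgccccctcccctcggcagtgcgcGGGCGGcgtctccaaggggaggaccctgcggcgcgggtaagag
The Col4a1 window holds 1 match and 37 CG dinucleotides and the Col4a2 window 3 matches and 33, and TATAAA is in neither. The RefSeq table (GRCm38.p6) gave windows for 31 of the 47 members.

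By class, medians were small, but some lay above most genes. In acetazolamide mesoderm at 12 h the median was 0.15 for the others and 0.10 for the laminins, against 0.01 for all genes. Both exceeded the upper quartile of all genes there, 0.07. The same held for laminins in cadmium mesoderm at 12 h (0.11 against 0.09). It also held for the others in cadmium mesoderm at 3 h (0.08 against 0.07). The remaining class medians lay within the quartiles of all genes. These gaps were not tested. The collagen median ran from -0.06 to 0.09 over the 8 comparisons, the laminin median from -0.08 to 0.11 and that of the others from -0.05 to 0.16. The fibril-forming chains (8 genes) ranged from -0.22 to 0.50 at 3 h and from -0.38 to 0.85 at 12 h. The type IV chains (5 genes) ranged from -0.50 to 0.45 at 3 h and from -0.22 to 0.65 at 12 h. The type VI chains (3 genes) were below 0 in acetazolamide ectoderm at 12 h, from -0.22 to -0.05, and above 0 in cadmium ectoderm at 12 h, from 0.02 to 0.34, with 0 of 3 at an unadjusted p under 0.05 in both. The type IX chains (3 genes), which coat cartilage fibrils, lay between -0.26 and 0.20 throughout, with 0 at that level in any comparison.

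**Figure D5:**
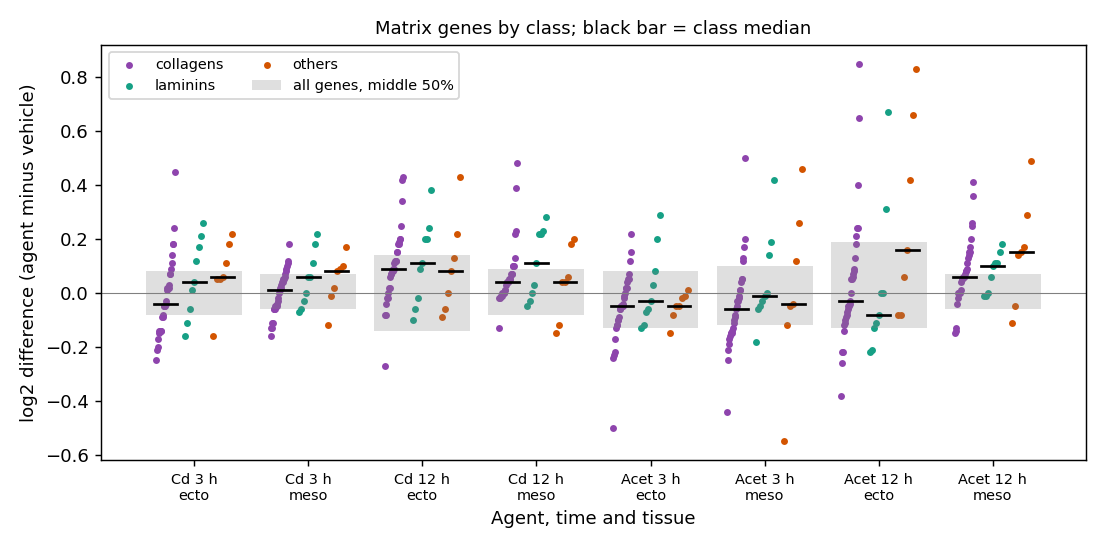
Points are the log2 differences, agent minus vehicle, of the 31 collagens, 9 laminins and 7 others in the 8 comparisons, black bars the class medians, and grey boxes the middle 50% of all 8252 genes. Class medians lie between -0.08 and 0.16, and the points farthest above 0 are in acetazolamide ectoderm at 12 h.

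Other genes of the matrix gave 1 call. The lists held 12 proteoglycan, 18 collagen processing, 9 elastic fibre, 23 matricellular and adhesive, 21 protease and inhibitor and 21 receptor genes, and 1 gene in 1 comparison was called. Sparcl1, a matricellular relative of SPARC, rose by 0.54 ± 0.13 in mesoderm at 12 h after cadmium (limma, adjusted p = 0.0225), where 2.28% of all genes were called. In acetazolamide mesoderm at 12 h, Sparcl1 differed by 0.56 ± 0.18 with separate arrays, but was not called. In cadmium mesoderm at 12 h, Vcan, which encodes the large proteoglycan versican, differed by -0.43 ± 0.16 (adjusted p = 0.195). Ctsk, a collagen-degrading cathepsin, differed there by -0.29 ± 0.09 (adjusted p = 0.103). Itgb5, an integrin beta chain, differed there by 0.23 ± 0.10 and Colgalt1, which glycosylates collagen, by 0.30 ± 0.13. In acetazolamide ectoderm at 12 h, Ltbp1, which ties latent TGF-beta to fibrillin microfibrils, differed by 0.58 ± 0.14 with separate arrays (adjusted p = 0.323), Npnt (nephronectin) by 0.60 ± 0.20 and Itgb1, the beta chain of many matrix receptors, by 0.51 ± 0.22. In acetazolamide ectoderm at 3 h, Sdc4, which encodes the receptor proteoglycan syndecan-4, differed by 1.26 ± 0.39 (adjusted p = 0.481) and Itga6, an alpha chain of laminin receptors, by 0.90 ± 0.25 (adjusted p = 0.317), both with separate arrays. Medians of these 6 lists lay between -0.15 and 0.08 in the 8 comparisons.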

How the data were processed

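The data are 1 table of 12488 probe sets on 48 arrays. The authors deposited each value as a linear ratio to vehicle arrays, and how it was made is not given in the sources used here. In all 8 comparisons the first and second vehicle arrays added up to 2 (within 3e-07) and the last equalled 1 (within 6e-08), so no level or depth is known. Ratios were taken to log2 here, and the mean over probe sets was used for a gene, from the 10855 that name 1 gene. Limma 3.58.1 in R 4.3.3 was fitted to all 48 arrays with 16 denominator means, 8 agent effects, 24 residual degrees of freedom and 1 precision weight per comparison. That arrays 1 and 2 share a denominator, treated arrays included, was inferred from the vehicle values. P-values were adjusted over 8252 genes by the Benjamini-Hochberg method, with a threshold of 0.05. The members, lists, weights and block were chosen with earlier results of these data known. Members were given full array values when called or when among the 2 with the smallest p of their class in a comparison, a few further ones being named after their values were seen. Alternatives changed the weights, the block, the arrays used, centring, moderation and the averaging of probe sets.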

Additional observations from a re-analysis of the deposited data

How the results depend on the processing

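Of 448 alternative values for the 22 counts of members called, 423 stayed within 1.5 times the main count. All main counts except that of cadmium mesoderm at 12 h were 0, so for them this means only that no member became called. Of 16 alternatives for cadmium mesoderm at 12 h, 11 went outside that range. Of 720 alternative values for 48 named differences, 699 kept their direction and side of the threshold. Col18a1 in cadmium mesoderm at 12 h, the only one called in the report, lost its call in 8 of 15. Leaving out array 3 of a vehicle group and leaving out array 3 of its agent group are the same fit, though both are counted in these totals. The count for cadmium mesoderm at 12 h, 1 in the report, was 0 without precision weights, in the plain design of group means, with arrays 1 and 2 alone, and with only its 6 arrays. It was 2 with the replicate number as a block (Col18a1 and Lama2) and 2 when probe sets were tested singly (101881_g_at and 99638_at), and 0 to 2 when 1 array was left out. The count for the acetazolamide mean, 0 in the report, was 1 without weights, without the denominator block, in the plain design and by probe sets (101948_at, a Lamb1 probe set). It was 2 with the replicate block (Col4a1 and Lamb1), and 0 to 1 when 1 array was left out. Counts from all these alternatives are given without the share of all genes, or of all probe sets, called in the same fits. They were therefore not set against a background. Leaving out 1 array gave 0 to 2 calls in acetazolamide mesoderm at 3 h and 0 to 6 in acetazolamide ectoderm at 12 h. It gave 0 to 1 for the cadmium mean (Col18a1 without cadmium array 2 of 12 h ectoderm) and 0 to 1 for cadmium minus acetazolamide in 12 h ectoderm (Col11a2, without PBS array 1 or oil array 2). In cadmium ectoderm at 12 h, Lama5 turned to -0.10 with arrays 1 and 2 alone and without PBS or cadmium array 3, and ran from -0.10 to 0.81 when 1 array was left out. There Fbln1 turned to -0.12 without cadmium array 1 (range -0.12 to 0.65). Lamb3 in acetazolamide ectoderm at 3 h turned to -0.08 without acetazolamide array 1 (range -0.08 to 0.47). The causes were not tested. The array numbers were not taken to pair the samples, since no label says so and the difference between arrays 1 and 2 correlated between agent and vehicle groups at over 0.1 in only 3 of 8 comparisons (range -0.20 to 0.65). The highest was that of cadmium mesoderm at 12 h, where the adjusted p with the replicate block was 0.00518 for Col18a1 and 0.0343 for Lama2. With the replicate block no other count of members called moved by over 1.5 times. Signal over background is unknown, and 3 arrays a group limit the precision.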
